A study of Homo sapiens with 23 samples.

Results

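Levels of the transcription factors that drive terminal differentiation of keratinocytes were compared between squamous carcinoma xenografts with and without human Flower. The group holds 9 genes, GRHL1, GRHL3, OVOL1, KLF4, ZNF750, PRDM1, MAF, ELF3 and HOPX, taken by gene symbol from a table of 27589 genes. All 9 passed the filter on low values, and each was followed in 23 tumours. The tumours were grown from SCC-13, a long-established line of human squamous carcinoma of the skin, injected with Matrigel under the flank skin of NCG mice, which lack functional lymphocytes but keep their own stroma and vessels. Polyadenylated RNA was sequenced from tumours frozen at harvest on day 26.

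Knockout (KO) cells carried a disrupted hFWE gene (CACFD1), and wild-type (WT) cells an intact one. The KO group had 11 tumours, 3 of line 2F7 and 4 each of lines 2B8 and 1G10. The WT group had 12 tumours, 4 each of lines 5B2, 6C9 and 6C10. All groups share the SCC-13 background, the host strain and the harvest day. The labels give the lines by code and not how they were derived, so genotype can be told apart from line only through the 3 lines on each side. A tumour is named below by line and specimen number. Whether every tumour grew in a separate mouse is not stated in the labels, and p-values cover the spread between these tumours, which may be technical. In bulk tumour RNA, fewer differentiated cells and less RNA per cell cannot be told apart.

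As keratinocytes leave the basal layer they stop dividing, switch keratins, assemble lipids and envelope proteins, and finally die as flattened corneocytes. That passage is run by a set of transcription factors that work in sequence and in part on each other. Grainyhead-like factors (GRHL1, GRHL3) and the zinc-finger proteins KLF4 and ZNF750 activate barrier genes, OVOL1 and PRDM1 (BLIMP1) are mainly repressors, MAF is a basic leucine zipper factor, ELF3 belongs to the ETS family, and HOPX is an atypical homeodomain protein that does not bind DNA by itself. Squamous carcinoma cells keep a variable share of this programme, and keratinising tumours express many of its products.

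The promoters of ELF3, PRDM1 and HOPX are shown because these 3 genes had the lowest mean in KO tumours relative to WT tumours among the 9. They are RefSeq windows on GRCh38.p14, each from 250 bases before to 50 bases after an annotated start and written 5′ to 3′ on the strand of the gene. Capitals mark matches to 6 short motifs, searched on both strands: TGANTCA for AP-1, AACNGGTT for GRHL proteins, GGGNGTGG for KLF proteins, CGGAAGT for ETS proteins, CCNNAGGC for ZNF750 and the TATA box TATAAA. The windows are chr1:202010337-202010636 on the plus strand for ELF3, chr6:106098691-106098990 on the plus strand for PRDM1, and chr4:56681247-56681546 and chr4:56656468-56656767 on the minus strand for HOPX.
ELF3 promoter: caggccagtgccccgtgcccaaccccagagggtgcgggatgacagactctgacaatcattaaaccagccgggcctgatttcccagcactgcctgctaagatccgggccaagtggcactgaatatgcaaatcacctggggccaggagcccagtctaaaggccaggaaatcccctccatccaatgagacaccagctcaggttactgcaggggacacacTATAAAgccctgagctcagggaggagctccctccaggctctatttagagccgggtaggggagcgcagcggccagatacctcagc
PRDM1 promoter: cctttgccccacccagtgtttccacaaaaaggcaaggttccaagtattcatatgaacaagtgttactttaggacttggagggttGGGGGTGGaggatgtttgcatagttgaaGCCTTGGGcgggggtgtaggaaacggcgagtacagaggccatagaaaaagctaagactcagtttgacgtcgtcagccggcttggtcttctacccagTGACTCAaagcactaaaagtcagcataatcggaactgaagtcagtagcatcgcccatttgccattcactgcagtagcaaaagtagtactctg
HOPX upstream promoter: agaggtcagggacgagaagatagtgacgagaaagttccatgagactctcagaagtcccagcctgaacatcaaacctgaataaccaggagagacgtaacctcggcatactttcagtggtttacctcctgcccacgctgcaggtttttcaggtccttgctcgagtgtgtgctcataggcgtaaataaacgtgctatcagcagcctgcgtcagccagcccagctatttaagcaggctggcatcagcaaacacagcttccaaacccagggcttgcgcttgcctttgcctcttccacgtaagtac
HOPX downstream promoter: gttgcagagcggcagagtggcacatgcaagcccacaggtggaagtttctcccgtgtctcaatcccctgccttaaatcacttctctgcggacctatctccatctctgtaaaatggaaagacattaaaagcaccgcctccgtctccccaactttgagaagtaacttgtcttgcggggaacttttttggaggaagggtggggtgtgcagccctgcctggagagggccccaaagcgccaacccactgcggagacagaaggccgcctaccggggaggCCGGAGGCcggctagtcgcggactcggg

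The ELF3 window held TATAAA, beginning 34 bases before the start, as did 11.5% of 35116 RefSeq windows of the same length. Of 2 PRDM1 windows the one with more matches is shown, and the other held only the KLF letters, 68 bases before its start. The window shown held the palindromic AP-1 letters 42 bases before the start, shared by 7.71% of windows, the KLF letters at 166 bases (17.2% of windows) and the ZNF750 letters at 138 bases (27.5%). The upstream HOPX window held none of the 6 motifs, and the downstream one held the ZNF750 letters 22 bases past the start. Windows were on hand for 7 of the 9 genes, 10 in all. The GRHL letters, found in 1.73% of all windows, and the ETS letters, in 6.83%, were in none of the 10. These are letter matches only, and with 1 value for each gene the use of either start site is not seen.

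Depth and tissue set the limits of what follows. Estimated assigned reads were between 13082214 and 22093213 in 21 libraries, and 7011069 and 2037751 in the WT 6C9 tumours 5532 and 5533. The log2 values of tumour 5533 correlated with those of other tumours at a median r of 0.763 (at least 0.943 for each other library), and 6.21% of its signal was mitochondrial, so the genotype and line comparisons of the 9 factors and their relation to terminal products over all tumours were also made without both tumours. CACFD1 (ENSG00000160325), the targeted gene, ranged from 167 to 370 with a median of 277 in KO tumours and from 286 to 432 with a median of 370 in WT tumours, a log2 difference of -0.45 with SE 0.11 and limma adjusted p of 0.227. The ranges overlapped, and gene-level values do not show whether a transcript carries the edit. The 9 keratinocyte markers had a summed value of 1002144 to 1326747 in KO and 696465 to 1338565 in WT tumours, mostly through KRT5, KRT14 and KRT6A. EPCAM was the lowest of that list, with a mean of 119 in KO and 94.9 in WT tumours. The 8 fibroblast markers, which can come from mouse cells, summed to 3841 to 28344 in KO and 2375 to 16850 in WT tumours. The 2 lymphocyte markers that were measured summed to at most 3.81 in KO and 8.64 in WT tumours. The macrophage list summed to 420 to 654 in KO and 475 to 657 in WT tumours, mostly through CD68, with AIF1, PTPRC and ITGAM at a mean below 10. The endothelial list summed to 260 to 389 in KO and 270 to 447 in WT tumours, mostly through VWF and ERG. VWF averaged 87.3 in KO and 142 in WT tumours (log2 difference -0.77, SE 0.25, limma adjusted p = 0.245). ERG averaged 204 in KO and 181 in WT tumours (0.18, SE 0.13, adjusted p = 0.542). PECAM1, CDH5, KDR and TEK of that list were at a mean below 10. The 6 muscle markers summed to 168 to 11031 in KO and 30.9 to 11028 in WT tumours, and the 3 adipocyte markers measured to at most 10.7 in KO and 22.5 in WT tumours. The part of these cells in the results below was not tested beyond a fit with the fibroblast markers as a covariate, in which the log2 difference between KO and WT tumours was -0.77 for ELF3 and -0.79 for HOPX (limma adjusted p = 0.601 and 0.617).

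Of the 9 factors, 7 had a lower and 2 a higher mean log2 value in KO than in WT tumours, with a median log2 difference of -0.32 where the median of all 16063 genes tested was 0.03. None passed limma with Benjamini-Hochberg adjustment at 0.05, the rule for a call used throughout, by which 0.00623% of all genes tested (1 gene) were called. At an unadjusted p under 0.05, 4 of the 9 were lower (OVOL1, PRDM1, ELF3 and HOPX) and 0 higher, against 6.63% of all genes tested that were lower. The 9 genes are correlated with each other over these tumours, so that they do not count as separate observations. Values below are the authors' normalised read counts and, for groups, mean ± SD. Fold changes are on the scale log2(value + 1).

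**Figure D1:**
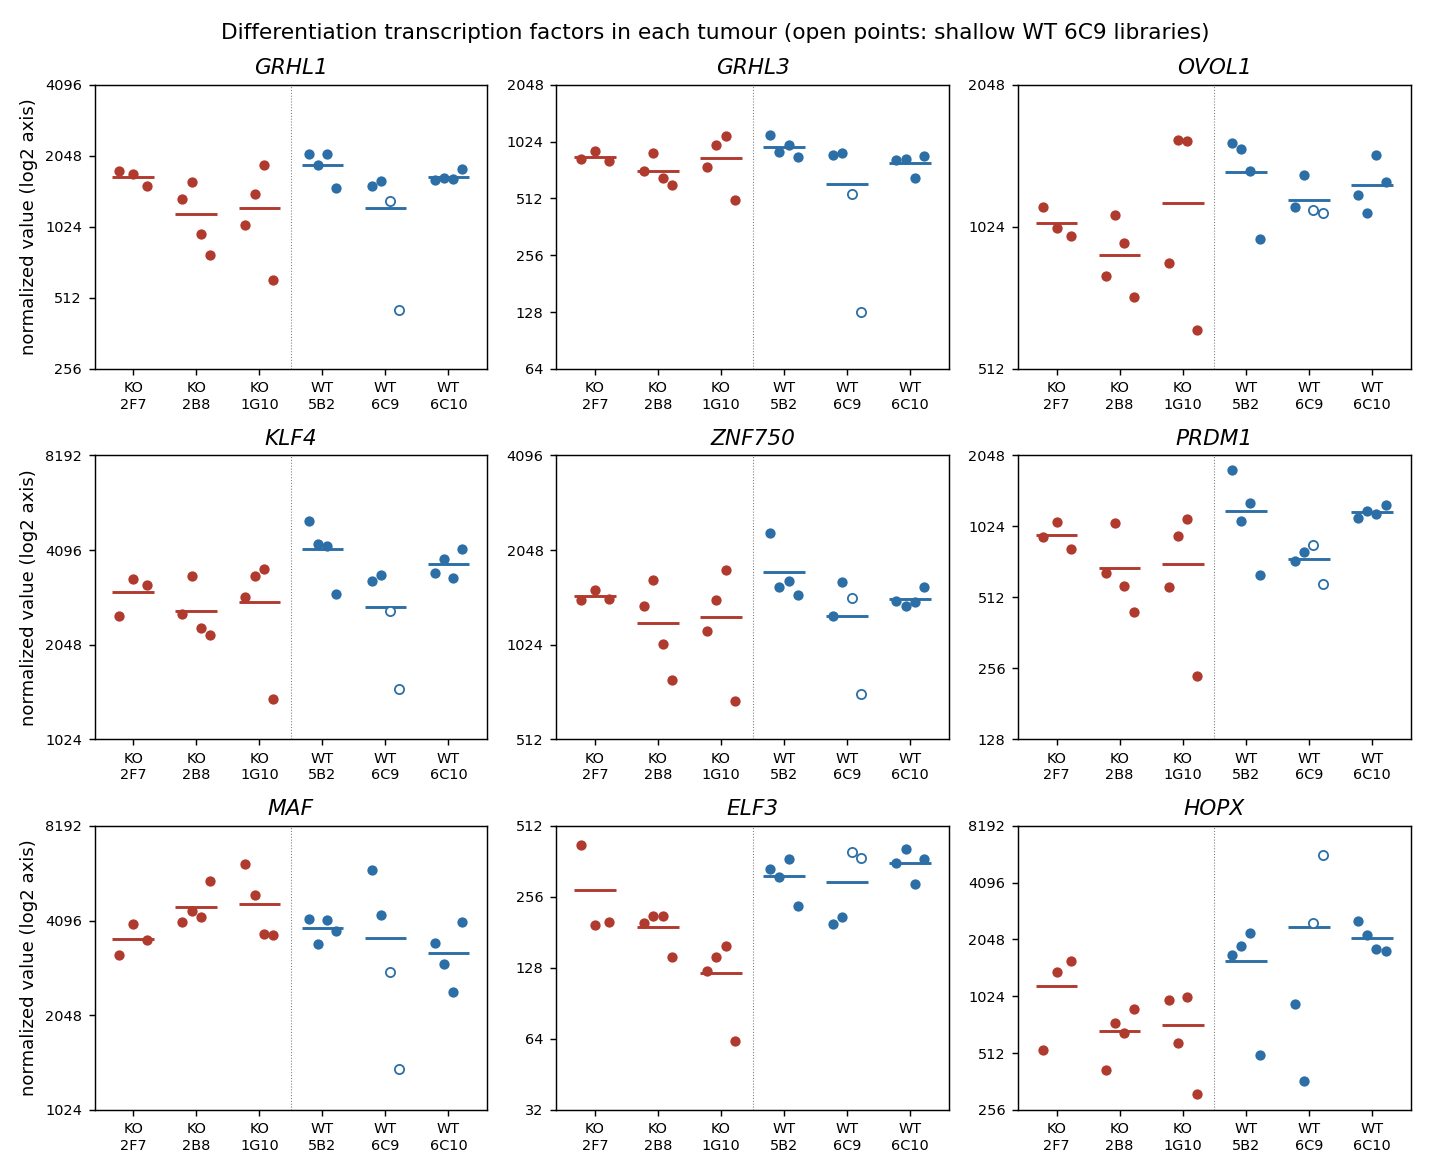
Normalised read count (log2 axis) of each of the 9 factors in every tumour, with KO lines 2F7, 2B8 and 1G10 left of WT lines 5B2, 6C9 and 6C10. Each point is a tumour, each bar the mean of a line and an open point one of the shallow tumours 5532 and 5533; ELF3 averaged 189 in KO and 321 in WT tumours, and HOPX 823 in KO and 2018 in WT tumours, with overlapping ranges in each panel.

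ELF3 (ENSG00000163435, chromosome 1, 202007945 to 202017183, plus strand, hg38), an ETS factor that activates cornified envelope genes, had the smallest p of the 9. In KO tumours it was at 427, 195 and 200 in line 2F7, at 199, 213, 212 and 142 in line 2B8, and at 124, 142, 159 and 62.8 in line 1G10. In WT tumours it was at 335, 310, 372 and 234 in line 5B2, at 197, 211, 398 and 374 in line 6C9, and at 356, 409, 291 and 372 in line 6C10. The ranges overlapped, since the 2F7 tumour 5538 was above every WT tumour and the 6C9 tumours 5530 and 5531 were among the KO values. Against that, 10 of 11 KO tumours lay below the WT median and 6 below every WT tumour. ELF3 averaged 189 ± 91.3 in KO and 321 ± 73.4 in WT tumours (SD, n = 11 and 12). The log2 difference was -0.86 with SE 0.21, an unadjusted limma p of 0.000439 and a limma adjusted p of 0.227. By unadjusted p ELF3 ranked 24th among all genes tested. The antisense gene ELF3-AS1 overlaps its 5′ part on the other strand at a mean of 53.5, and strand use in counting is not given.

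HOPX (ENSG00000171476, chromosome 4, 56647988 to 56681899, minus strand), a cofactor that marks suprabasal keratinocytes, showed the largest difference in size and the widest spread. Its KO values were 530, 1379 and 1568 in line 2F7, 417, 742, 654 and 877 in line 2B8, and 979, 579, 1019 and 310 in line 1G10. Its WT values were 1694, 1891, 2215 and 502 in line 5B2, 934, 362, 2513 and 5764 in line 6C9, and 2555, 2173, 1833 and 1777 in line 6C10. Every one of the 11 KO values was under the WT median, and 9 of 12 WT tumours lay above every KO tumour. The exceptions were the WT tumours 5529, 5530 and 5531, whose values of 502, 934 and 362 fell among the KO values. HOPX averaged 823 ± 392 in KO and 2018 ± 1384 in WT tumours (SD, n = 11 and 12), and 1677 ± 758 in the 11 WT tumours other than the shallow 5533, which held the highest value. The log2 difference was -1.12 with SE 0.36 and a limma adjusted p of 0.245, and -0.84 with SE 0.37 and an adjusted p of 0.437 without both shallow tumours.

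PRDM1 (ENSG00000057657, chromosome 6, 105993463 to 106109939, plus strand), a repressor that in mouse epidermis acts in the last steps before cornification, was at 920, 1069 and 822 in KO line 2F7, at 649, 1062, 574 and 443 in 2B8, and at 568, 935, 1097 and 236 in 1G10. In WT tumours it was at 1775, 1081, 1284 and 638 in line 5B2, at 730, 799, 853 and 585 in 6C9, and at 1111, 1192, 1161 and 1264 in 6C10. The 4 tumours of 6C10 lay above all KO tumours and those of 6C9 among them. PRDM1 averaged 761 ± 286 in KO and 1039 ± 337 in WT tumours, and 10 of 11 KO tumours were below the WT median. Its log2 difference was -0.50 with SE 0.23 and a limma adjusted p of 0.380. PRDM1 shares part of its span with ATG5 on the opposite strand, which had a mean of 428.

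OVOL1 (ENSG00000172818, chromosome 11, 65787063 to 65797214, plus strand), a zinc-finger repressor that in mouse takes progenitor cells out of the cell cycle, ranged from 619 to 1562 with a median of 979 in KO and from 967 to 1544 with a median of 1234 in WT tumours. It was lower than every WT tumour in 5 KO tumours and higher than all of them in 2, both of line 1G10. OVOL1 averaged 1026 ± 304 in KO and 1253 ± 183 in WT tumours, a log2 difference of -0.33 with SE 0.13 and a limma adjusted p of 0.324.

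KLF4 (ENSG00000136826, chromosome 9, 107484852 to 107490482, minus strand), needed for the skin barrier in mouse, ranged from 1378 to 3562 with a median of 2894 in KO and from 1480 to 5080 with a median of 3439 in WT tumours. The ranges overlapped, but 10 of 11 KO tumours were below the WT median and 5 WT tumours above every KO tumour. KLF4 averaged 2790 ± 665 in KO and 3510 ± 921 in WT tumours; its log2 difference was -0.32 with SE 0.17 and a limma adjusted p of 0.445. Without the shallow tumours its difference was -0.47 with SE 0.15 and an adjusted p of 0.373.

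The other zinc-finger activator, ZNF750 (ENSG00000141579, chromosome 17, 82829434 to 82840022, minus strand), which in human keratinocytes acts upstream of KLF4, ranged from 676 to 1773 with a median of 1420 in KO and from 713 to 2315 with a median of 1460 in WT tumours. The medians lay close together and the ranges overlapped. It averaged 1291 ± 346 in KO and 1479 ± 359 in WT tumours, and its log2 difference was -0.21 with SE 0.17 and a limma adjusted p of 0.557. ZNF750 lies within TBCD, a gene on the opposite strand with a mean of 413.

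The 2 grainyhead-like factors had mean differences of opposite sign when all tumours were kept, and of the same sign without the shallow ones. GRHL1 (ENSG00000134317, chromosome 2, 9951693 to 10002277, plus strand), which controls desmosomal cadherins in mouse, ranged from 608 to 1883 with a median of 1414 in KO and from 457 to 2084 with a median of 1623 in WT tumours. Its log2 difference was -0.26 with SE 0.22 and a limma adjusted p of 0.574. GRHL3 (ENSG00000158055, chromosome 1, 24199558 to 24364482, plus strand), required for barrier formation in mouse, ranged from 503 to 1100 with a median of 810 in KO and from 128 to 1111 with a median of 852 in WT tumours. Its log2 difference was 0.13 with SE 0.25 and a limma adjusted p of 0.808. The shallow WT tumour 5533 held the lowest value of both genes, and without the shallow tumours the difference of GRHL3 was -0.16 with SE 0.13 and an adjusted p of 0.698. For GRHL3 the sign therefore rested on those libraries.

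MAF (ENSG00000178573, chromosome 16, 79585843 to 79600737, minus strand), which promotes differentiation of human keratinocytes, was the 1 gene with a higher mean in KO tumours in both fits. It ranged from 3177 to 6215 with a median of 4046 in KO and from 1379 to 5942 with a median of 3637 in WT tumours. Only 2 of 11 KO tumours lay below the WT median, and 4 WT tumours lay below every KO tumour. MAF averaged 4311 ± 905 in KO and 3568 ± 1130 in WT tumours, and its log2 difference was 0.32 with SE 0.17 and a limma adjusted p of 0.441. Without the shallow tumours the difference was 0.15 with SE 0.14 and an adjusted p of 0.741.

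Leaving out the 2 shallow WT tumours gave 8 factors with a lower and 1 with a higher mean in KO tumours. Limma then called 0 of the 9 (0% of all genes tested), and 6 of 9 were lower at an unadjusted p under 0.05, GRHL1 and KLF4 in addition to the earlier 4, against 5.99% of all genes tested. With libraries weighted by their quality instead of left out, 3 of the 9 fell in KO tumours: KLF4 had a log2 difference of -0.40 (adjusted p = 0.0434), ELF3 of -0.86 (adjusted p = 0.0119) and HOPX of -1.11 (adjusted p = 0.0222). In that weighted limma fit 3.01% of all genes tested were lower. The 3 calls therefore depended on how the libraries were weighted.

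**Figure D2:**
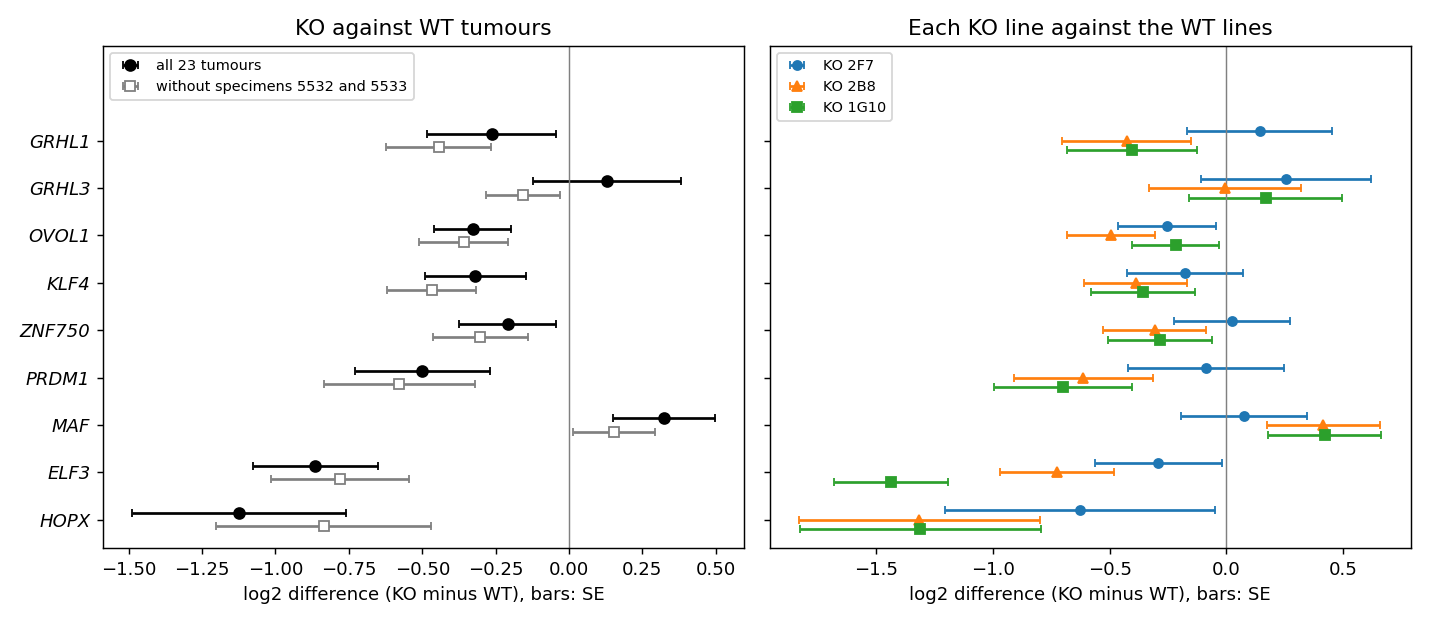
Log2 difference on the log2(value + 1) scale for each factor, KO minus WT (all 23 tumours, and without the shallow tumours) and each KO line minus the mean of the WT lines, with bars for 1 SE. ELF3 stood at -1.43 in KO line 1G10 and -0.29 in 2F7, and 2F7 lay nearest to 0 for PRDM1, ELF3 and HOPX.

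The difference from WT tumours was smaller in KO line 2F7 than in the other KO lines for 7 of the 9 factors by size, though not beyond the spread. The lines were set 1 by 1 against the WT lines in a limma model of 6 line means, so that the 3 comparisons share the WT tumours. Limma called 0 of the 9 in 2F7 (0% of all genes tested), 0 in 2B8 (0%) and 0 in 1G10 (0%). At an unadjusted p under 0.05, 0 of 9 were lower in 2F7 (1.1% of all genes tested), 3 in 2B8 (OVOL1, ELF3 and HOPX; 4.47%) and 3 in 1G10 (PRDM1, ELF3 and HOPX; 5.62%). The median log2 difference over the 9 was -0.09 in 2F7, -0.43 in 2B8 and -0.36 in 1G10. CACFD1 itself was at -0.12 (SE 0.14) in 2F7, -0.49 (SE 0.13) in 2B8 and -0.67 (SE 0.13) in 1G10, with limma adjusted p-values of 0.950, 0.287 and 0.0996. Its mean was 342 in 2F7 and 331 in WT line 6C9. Whether the factors follow CACFD1 over lines was not tested.

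ELF3 differed most from line to line on the KO side. Its log2 difference from the WT lines was -0.29 (SE 0.27) in 2F7, -0.73 (SE 0.24) in 2B8 and -1.43 (SE 0.24) in 1G10, where the limma adjusted p was 0.0693. The value in 1G10 passed the threshold when only genes with a mean of at least 100 were tested (adjusted p = 0.0492), and when 2F7 tumour 5538, 5B2 tumour 5529 or 6C9 tumour 5531 was left out, with adjusted p-values of 0.0457, 0.0438 and 0.0246. Over all 23 fits without 1 tumour the adjusted p ran from 0.0246 to 0.879, the highest without the 1G10 tumour 5549, where the log2 difference was -1.15. HOPX was at -0.63 (SE 0.58) in 2F7, -1.31 (SE 0.52) in 2B8 and -1.31 (SE 0.52) in 1G10. PRDM1 was at -0.09 (SE 0.33) in 2F7, -0.61 (SE 0.30) in 2B8 and -0.70 (SE 0.30) in 1G10. For GRHL1 the 3 differences were 0.14, -0.43 and -0.40, and for MAF 0.08, 0.41 and 0.42.

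The test of the difference among the KO lines, limma's F test, called 0 of the 9 (0% of all genes tested), so the order of the lines did not stand out from the spread between tumours. At an unadjusted p under 0.05 limma took ELF3 alone (adjusted p = 1), against 2.22% of all genes tested. Among WT lines the F test called 0 of the 9 (0.00623% of all genes tested) and took 0 at an unadjusted p under 0.05 (10.3%). Without the shallow tumours limma took HOPX and MAF among WT lines at an unadjusted p under 0.05 (adjusted p = 0.232 and 0.241), against 15.5% of all genes tested. The range of WT line means of HOPX was 0.59 on the log2 scale with all tumours and 1.82 without the shallow ones, and that of GRHL3 was 0.99 with and 0.28 without them.

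Taking the line as the unit, the KO line means of 3 of the 9 lay below all WT line means, against 8.87% of all genes tested, and those of 0 of the 9 lay above (9.77%). ELF3 had line means of 274, 191 and 122 in KO lines 2F7, 2B8 and 1G10 and of 313, 295 and 357 in WT lines 5B2, 6C9 and 6C10. HOPX had 1159, 672 and 722 in the KO lines, and 1576, 2393 and 2084 in the WT lines. OVOL1 had 1042, 891 and 1149 in the KO lines, and 1339, 1165 and 1254 in the WT lines. An exact permutation test of 3 against 3 line means gave two-sided p = 0.1 for each, the smallest it can give. Without the shallow tumours, the KO line means of 2 of 9 (OVOL1 and KLF4) lay below all WT line means, against 5.53% of all genes tested. Line 6C9 was then represented by tumours 5530 and 5531. Only OVOL1 stayed apart in both settings, since the line means of KLF4 overlapped with all tumours and those of ELF3 and HOPX without the shallow ones. The gap of OVOL1 was small against the spread, with 1149 ± 484 in KO line 1G10 and 1165 ± 106 in WT line 6C9. Its log2 difference of 1G10 from the WT lines ran from -0.40 to 0.043 when single tumours were left out. Whether the line means of OVOL1 stay apart without single tumours was not tested.

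Per kilobase of exon (the union of exons in GENCODE release 29), the order of levels over the 23 tumours was KLF4, MAF, ZNF750, OVOL1, GRHL3, HOPX, GRHL1, PRDM1 and ELF3. The union was 7753 bases over 15 transcripts for HOPX and 7191 over 10 for ELF3, against 3659 over 6 for KLF4. Where the transcripts in use are shorter than the union, the level is understated. The order therefore holds for this length only. KLF4 averaged 762 ± 182 per kilobase in KO and 959 ± 252 in WT tumours, and ELF3 26.2 ± 12.7 in KO and 44.7 ± 10.2 in WT tumours (SD, n = 11 and 12). Most neighbours in this order kept it in nearly every tumour, with OVOL1 above GRHL3 in 23 of 23 and KLF4 above MAF in 20 of 23. HOPX had no fixed place: it was above GRHL1 in 10 of 23 tumours, at 106 ± 50.6 per kilobase in KO and 260 ± 178 in WT tumours, and GRHL3 was above HOPX in 15 of 23.

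The level of most factors varied over tumours with that of structural and enzymatic products of terminal differentiation. A score was taken as the mean log2 value of 24 terminal products, which include keratins 1 and 10, filaggrin, loricrin, involucrin, transglutaminases, lipoxygenases and kallikreins. It averaged 11.8 ± 0.76 in KO and 12.5 ± 0.39 in WT tumours (SD, n = 11 and 12), with a range of 9.98 to 12.6 in KO and 11.9 to 13.0 in WT tumours. The lowest score belonged to KO 1G10 tumour 5549, which also had the lowest value of the KO tumours for 8 of the 9 factors. Factor and score come from the same libraries and share their scaling.

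PRDM1 tracked the score most closely, with Pearson's r = 0.944 and Spearman's rho = 0.929 over 23 tumours (permutation p = 1e-05 for each, the smallest that 100000 permutations can give, and 9e-05 for r and 3e-05 for rho when adjusted over 9 relations). After both were centred on their line means r was 0.926 and rho 0.787. Without the 2 tumours farthest from the median score, KO tumours 5544 and 5549, r was 0.902. Within KO tumours alone PRDM1 had r = 0.956 (n = 11) and within WT tumours 0.914 (n = 12), with adjusted permutation p-values of 0.000428 and 0.00054.

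Over all tumours, 7 of 9 relations were called by r after adjustment over the 9. Of all genes tested other than the 24 products, 4.23% had an r at least as high as the lowest of the 7. KLF4 had r = 0.797 and rho = 0.804, OVOL1 0.791 and 0.697, ELF3 0.770 and 0.617, ZNF750 0.751 and 0.628, GRHL1 0.728 and 0.845, and HOPX 0.654 and 0.715, with adjusted permutation p-values of r between 9e-05 and 0.000681 and of rho between 3e-05 and 0.00276. All 7 stayed called with both sides centred on line means and without the 2 farthest tumours. The permutations, also those of centred values, ran over all tumours and not within lines. The p-values therefore leave out the nesting of tumours in lines, and those after centring can be too small. GRHL3 had r = 0.329 and rho = 0.510 (adjusted permutation p = 0.0946 and 0.0165), and r = 0.755 without the shallow tumours (adjusted p = 0.000203). The relation of MAF was not called over all tumours, with r = -0.211 and rho = -0.395 (adjusted permutation p = 0.301 and 0.0641), though its rho passed when KO tumour 5549 or WT tumour 5526, 5528, 5533 or 5537 was left out (rho = -0.463 without 5549, adjusted permutation p between 0.0345 and 0.0458 in the 5 fits). Within KO tumours 8 of the 9 relations were called by r and 6 by rho, where 8.62% of all genes had an r as high as the lowest of the 8. KO tumour 5549 had a score of 9.98, against 11.4 in the next lowest KO tumour, 5544. How far the relations within KO tumours rest on tumour 5549 was not tested. Within WT tumours PRDM1 alone was called by r (0.125% of all genes had an r as high), and GRHL1, OVOL1, KLF4 and PRDM1 by rho. Without WT tumour 5533 the WT calls were KLF4, PRDM1, ELF3 and HOPX by r, and GRHL1, KLF4 and PRDM1 by rho. A share over all genes was taken only for r over all, KO and WT tumours. The counts by rho and without 5533 therefore cannot be set against all genes.

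**Figure D3:**
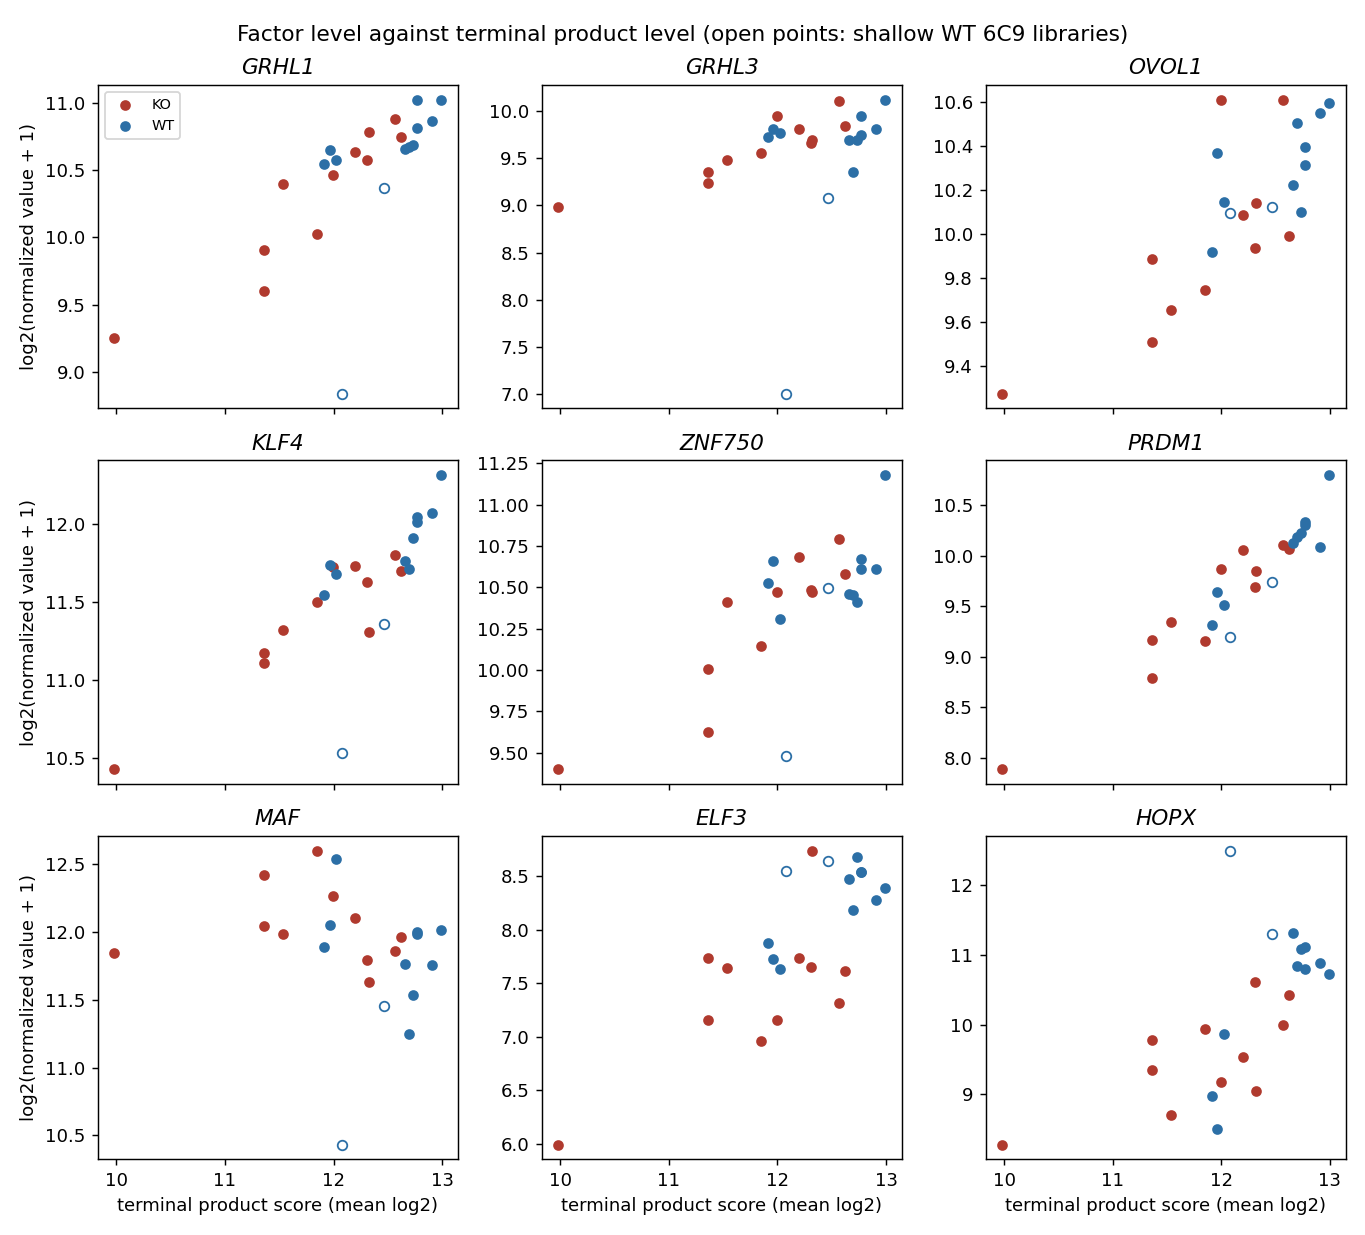
Log2(value + 1) of each factor against the terminal product score, the mean log2 value of 24 genes, 1 point per tumour, KO and WT in separate colours and the shallow tumours 5532 and 5533 as open points. PRDM1 lies closest to a line (r = 0.944), while MAF has r = -0.211.

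Among the factors themselves, GRHL1, KLF4, ZNF750 and PRDM1 varied closely together. Over 23 tumours GRHL1 and ZNF750 had r = 0.939 and rho = 0.789, GRHL1 and KLF4 0.914 and 0.853, and KLF4 and ZNF750 0.897 and 0.765, each with an adjusted permutation p of 4.5e-05 for r over 36 pairs. Without the 2 tumours farthest from the median of the first gene, r was 0.894, 0.811 and 0.777 for these pairs. PRDM1 had r = 0.827 and rho = 0.884 to GRHL1 and 0.874 and 0.874 to KLF4. Over the 21 tumours other than the shallow ones PRDM1 was closer, with r = 0.930 to GRHL1, 0.929 to KLF4 and 0.897 to ZNF750. GRHL3 and OVOL1 were close to some of these genes too. Over 23 tumours GRHL3 had r = 0.844 to GRHL1 but 0.495 to PRDM1, and OVOL1 0.832 to PRDM1 but 0.650 to GRHL1. Without the shallow tumours GRHL3 had 0.852 to GRHL1, 0.895 to ZNF750 and 0.797 to PRDM1. OVOL1 then had 0.822 to GRHL1 and 0.843 to PRDM1. ELF3 had r = 0.693 to PRDM1 and 0.643 to HOPX (adjusted permutation p = 0.00122 and 0.00242). Centred on line means and without the shallow tumours, ELF3 and PRDM1 had r = 0.71 (adjusted permutation p = 0.00108), while ELF3 and HOPX had 0.169 (0.541). MAF had negative r to HOPX (-0.559, adjusted permutation p = 0.0111) and to ELF3 (-0.504, 0.0331). Neither held within lines: centred on line means r was -0.415 to HOPX and -0.351 to ELF3 (adjusted permutation p = 0.0841 and 0.142), and 0.426 and 0.01 when the shallow tumours were also left out. To GRHL3 MAF had a positive r of 0.684 over 23 tumours (adjusted permutation p = 0.0171) and 0.783 centred on line means (0.00066). Without the shallow tumours that r was 0.065 (0.778).

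**Figure D4:**
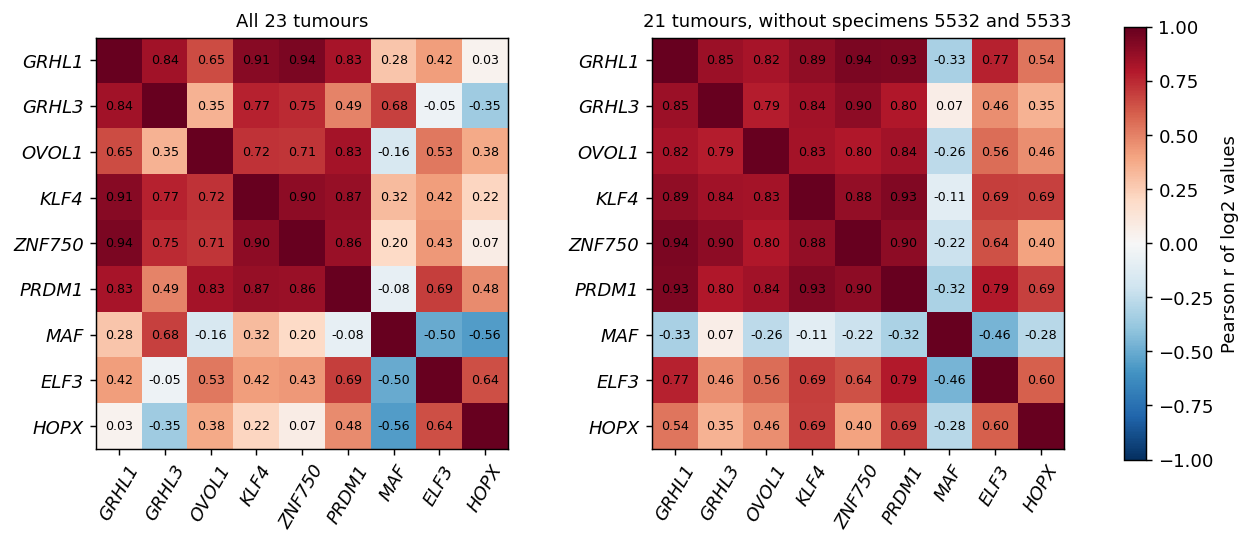
Pearson r between the 9 factors over 23 tumours (left) and over 21 without the shallow tumours 5532 and 5533 (right), from blue (-1) to red (1). GRHL1, KLF4 and ZNF750 have r of 0.897 to 0.939 with each other on the left, and MAF is negative with HOPX and ELF3.

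The genes whose pattern over tumours was most like that of each factor were taken as the 3 with the highest Pearson r of log2 values over 22 tumours, without 5533, among 12721 protein-coding genes tested. For ZNF750 they were TGM1, the envelope-sealing transglutaminase (r = 0.975), VSIG10L (0.957) and SH3GL1 (0.944). For KLF4 they were the kinase PIM1 (0.976) and the epidermal lipoxygenases ALOX12B (0.960) and ALOXE3 (0.934), and for GRHL1 the phospholipase PLA2G4D (0.958), the fucosyltransferase FUT3 (0.957) and ALOX12B (0.955). ALOX12B was thus among the nearest of both KLF4 and GRHL1.

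PRDM1 was most like FBXO45 (0.969), ZRANB1 (0.964) and the gasdermin GSDMA (0.958). The nearest to OVOL1 were DUSP1 (0.913), TOB1 (0.898) and METRNL (0.884), and to GRHL3 FNBP1 (0.932), the nuclear receptor PPARD (0.926) and KCTD11 (0.920). ELF3 was nearest to VILL (0.900), the lipocalin LCN2 (0.899) and the serpin SERPINB3 (0.887), which had log2 differences between KO and WT tumours of -1.03, -1.37 and -1.44 with limma adjusted p-values of 0.227, 0.235 and 0.233. HOPX was nearest to LYPLA1 (0.946), LYRM1 (0.929) and the late cornified envelope gene LCE1B (0.925), with differences of -0.46, -0.73 and -1.74. MAF was nearest to NDRG1 (0.879), ANGPTL4 (0.854) and STC2 (0.850). These values describe likeness over tumours that share libraries and lines and carry no test.

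Other genes of the programme were followed in 4 lists, chosen like the 9 factors with earlier results known, and limma called 0 of their members. At an unadjusted p under 0.05, 5.9% of all genes tested were higher and 6.63% lower in KO tumours. Of the 23 partner factors of epidermal differentiation tested, 4 were higher and 4 lower at that p, with a median log2 difference of -0.02. The 2 genes with the smallest p and the 2 with the highest mean are given for each list. Among them POU2F3, a POU factor of upper epidermis, averaged 56.5 ± 15.1 in KO and 93.0 ± 40.0 in WT tumours (log2 difference -0.66, SE 0.22, adjusted p = 0.246), and CEBPB 3485 ± 854 in KO and 4377 ± 527 in WT tumours (-0.37, SE 0.13, adjusted p = 0.287). The 2 most abundant, KLF5 and the lineage factor TP63, had differences of 0.01 (SE 0.07) and 0.33 (SE 0.18).

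Of 12 chromatin cofactors of the programme, 1 was higher and 0 lower at an unadjusted p under 0.05, near the 5.9% and 6.63% of all genes tested, with a median log2 difference of 0.08. The demethylase KDM1A averaged 1714 ± 199 in KO and 1533 ± 115 in WT tumours (log2 difference 0.16, SE 0.07, adjusted p = 0.338), its partner RCOR1 had 0.22 (SE 0.13) and the remodelling ATPase SMARCA4 0.11 (SE 0.08).

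Of the 24 terminal products, 12 were lower and 0 higher at an unadjusted p under 0.05 (6.63% and 5.9% of all genes tested), with a median log2 difference of -0.54. The median was -0.04 in KO line 2F7, -0.74 in 2B8 and -0.69 in 1G10. The desquamation proteases KLK5 and KLK7 averaged 2523 ± 1720 and 2344 ± 1439 in KO tumours and 6913 ± 3636 and 5561 ± 2230 in WT tumours, with log2 differences of -1.54 (SE 0.43) and -1.41 (SE 0.40) and a limma adjusted p of 0.227 for both. KRT10 and FLG, the keratin and matrix protein of the upper layers, had differences of -0.92 (SE 0.39) and -1.20 (SE 0.50).

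Of 14 genes of the basal progenitor state, 6 were higher and 1 lower at an unadjusted p under 0.05 (5.9% and 6.63% of all genes tested), with a median log2 difference of 0.33. LAMA3, a laminin chain of the basement membrane, averaged 2290 ± 734 in KO and 1481 ± 524 in WT tumours (log2 difference 0.67, SE 0.21, adjusted p = 0.244). ID1, an inhibitor of basic helix-loop-helix factors, averaged 1085 ± 482 in KO and 1593 ± 470 in WT tumours (-0.61, SE 0.21, adjusted p = 0.271). The basal keratins KRT14 and KRT5 had differences of 0.27 (SE 0.17) and 0.33 (SE 0.18).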

How the data were processed

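RNA-seq of 23 xenograft tumours was analysed from 1 table of the whole series, with groups taken from the sample titles. The deposited values are a normalised signal per gene, which per the submitters' processing notes came from STAR, DESeq2 and the build hg38, with no versions or roles given. Directional poly(A) libraries were made, per the labels' protocols. Strand use in counting and the treatment of mouse reads are not given in the sources used here. Low values repeated at multiples of 1 smallest step, taken as 1 read. Only 70.7% to 83.9% of values up to 20 reads were whole multiples within 0.02 reads, so counts were not recovered and no count test was run; depth is the total divided by that step. Gene ends in the table are exclusive and are printed as last bases. No pair of libraries agreed within sampling noise: chi-square per degree of freedom was at least 7.70.

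Genes with a mean of at least 10 were tested (16063) as log2(value + 1), which understates changes of low genes, with limma 3.58.1 in R 4.3.3, a trended prior and the line as a random block with a consensus correlation of 0.0077. Lines were compared in a model of 6 line means, and Benjamini-Hochberg adjustment ran over all genes tested within each comparison at 0.05. The procedure was tested on simulated data, in which genes and tumours varied independently and lines did not differ apart from added shifts. How the fit behaves with line effects nested in genotype was not tested. Relations were tested by 100000 permutations of tumours, two-sided and not within lines, and line means by exact permutation. Promoters came from RefSeq, and exon lengths from GENCODE release 29.

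The 9 genes and all lists were chosen with earlier results of these data known. The rule for names takes the 9 genes, CACFD1, the called genes of each list, or else the 2 with the smallest p and the 2 with the highest mean, and the 3 genes most like each factor. Alternatives were other pseudocounts, filters and scalings, library weights, a stromal covariate, and leaving out tumours or lines.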

Additional observations from a re-analysis of the deposited data

Results flagged for a closer look

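Within lines of 4 tumours, 2 of 45 combinations of gene and line held a tumour whose gap to its nearest neighbour took up most of the range, where chance gives about 1 in 20. GRHL3 was at 654 in WT 6C10 tumour 5536, against 824 to 857 in the other tumours of that line. OVOL1 was at 1322 in WT 6C9 tumour 5531, against 1095 to 1130 in the others.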

How the results depend on the processing

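Of the 9 factors, 8 kept the direction of their KO against WT difference under all alternatives, and none but KLF4, ELF3 and HOPX, under library quality weights, passed the threshold. GRHL3 was the exception in direction: its difference was -0.16 without both shallow tumours, -0.067 with quality weights, -0.15 without line 6C9, and -0.094 to 0.19 when single tumours were left out. The count of genes called, 1, became 0 after rescaling to the same total, without both shallow tumours, with the fibroblast covariate, and without line 2B8, 1G10, 5B2 or 6C10, and 738 with quality weights. Leaving out 1 tumour gave 0 to 2. Rescaling moved the median of all genes by 0.05.

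For single KO lines, with 0 genes called, other settings called 1 in 2F7 and 1 in 2B8 without a filter, and 3 in 1G10 with a mean of at least 100. Leaving out 1 tumour gave 0 in every fit for 2F7, 0 to 17 for 2B8 and 0 to 26 for 1G10, 0 in every fit among KO lines, and 0 to 2 among WT lines. In 2F7 the signs of 4 factors turned without the shallow tumours, to -0.026 for GRHL1, -0.035 for GRHL3, -0.060 for ZNF750 and -0.15 for MAF. Leaving out 1 tumour gave -0.061 to 0.071 for ZNF750, -0.19 to 0.0021 for PRDM1 and -0.056 to 0.18 for MAF there. GRHL3 in 2B8 was at 0.063 after rescaling and at -0.22 to 0.093 without single tumours. In 1G10 GRHL3 was at -0.12 without the shallow tumours, and without single tumours GRHL3 was at -0.044 to 0.39 and OVOL1 at -0.40 to 0.043. The relation of MAF to the terminal product score had r = 0.059 with both centred on line means, and the difference of line means of GRHL3 was -0.15 without the shallow tumours. Without those, the line means of KLF4 came apart and those of ELF3 and HOPX overlapped. The number of relations to the score called by r over all tumours, 7, was 7 to 8 when single tumours were left out. By rho all 9 were called without KO 1G10 tumour 5549, and also without WT tumour 5526, 5528, 5533 or 5537. No share over all genes was taken for the counts without single tumours. The cause of the changes listed here was not tested. With 3 lines on each side, an exact test cannot go below 0.1, and the depth of 2037751 reads in tumour 5533 limits what WT line 6C9 can show.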
